A study of Mus musculus with 2 samples.

Results

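Cadherins are calcium-dependent adhesion proteins of the cell surface. The extracellular repeats of a classical cadherin bind a like cadherin on the neighbouring cell, and its cytoplasmic tail binds catenins, which join it to the actin cytoskeleton. Non-clustered protocadherins carry related repeats but have other tails and do not bind catenins in the classical way. In the cerebral cortex both families are known for expression that differs between areas, layers and cell types, and for roles in migration, axon growth and synapse formation. The 34 genes described here were chosen by symbol, as every gene named Cdh or Pcdh followed by a number alone that has at least 1 protein-coding transcript. They comprise 23 Cdh and 11 Pcdh genes of 55536 annotated genes. Pcdh11x, whose symbol ends in a letter, and the clustered protocadherins are not included. The rule used no measured value. By structure only 18 of the 34 are classical cadherins, 5 of type I and 13 of type II. Another 5 are cadherins of other structure, 8 are delta protocadherins and 3 are other non-clustered protocadherins.

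Left cerebral cortex was taken at an age of 14 days from males of the strain B6CASTF1/J, a first-generation hybrid of C57BL/6 and CAST. Total RNA was sequenced in 2 libraries, numbered as biological replicates 1 and 2 of 1 group, each from 300 ng of RNA. The labels speak of 3 males and give both libraries the same donor entry, without stating pooling or separate animals, so the spread between the libraries may be technical. No condition was compared, and no p-value is given. Whether both parental alleles aligned equally well to the C57BL/6 reference was not tested.

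Replicate 2 held 30862848 and replicate 1 held 28263266 expected counts in genes, of which the 34 genes took 73533.5 and 68118.9. For counting error only, the limit set by a count of 0 is 3 counts, or 0.0972 CPM (counts relative to the library total) in replicate 2 and 0.106 CPM in replicate 1. All 6 markers of cortical excitatory neurons reached a TPM of 1 in both libraries, with summed levels of 1864 TPM in replicate 2 and 1588 TPM in replicate 1. None of 6 cerebellar markers did, with summed levels of 2.29 TPM in replicate 2 and 0.67 TPM in replicate 1. The 4 of them with enough counts for the comparison of libraries below were all past 2-fold higher in replicate 2. The libraries differed in their markers of neighbouring tissue. All 11 striatal markers were lower in replicate 2, with summed levels of 186 TPM there and 619 TPM in replicate 1, and no marker of that list was at 0. In bulk tissue, fewer cells of a type and less RNA per cell cannot be told apart.

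Most of the family was expressed. TPM is a level per transcript length, scaled to the same total in each library, and is used below for comparisons between genes. Of the 34 genes, 25 reached 1 TPM in both libraries (73.5%), against 58.8% of all 22028 protein-coding genes. Reaching 10 TPM in both were 18 genes, and 5 reached 50 TPM. The median level of the 25 genes was 17.1 TPM in replicate 2 and 18.4 TPM in replicate 1, close to the medians of 15.9 and 16.0 TPM over the protein-coding genes at the same threshold. The 3 highest genes held 37.2% of the family's summed TPM in replicate 2 and 36.0% in replicate 1.

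**Figure D1:**
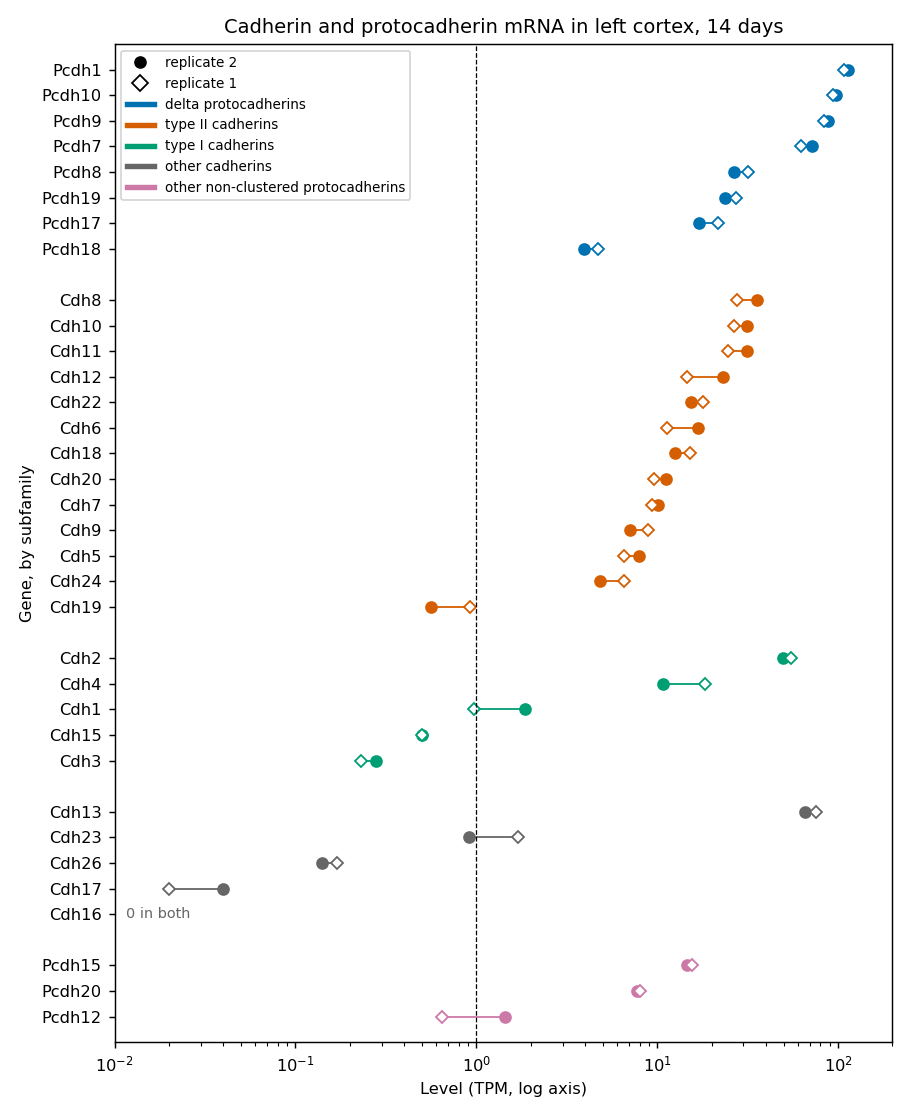
Levels of the 34 genes in TPM (log axis), grouped by subfamily, with replicate 2 as filled circles and replicate 1 as open diamonds joined by a line. The dashed line marks 1 TPM, all 8 delta protocadherins and 12 of 13 type II cadherins lie above it in both libraries, and Cdh16 is written as 0.

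Delta protocadherins carried the larger part of the family's RNA. They are named for conserved motifs in their cytoplasmic tails and are divided into delta-1 and delta-2 groups, and several delta-2 members bind the WAVE complex, which drives actin branching. All 8 measured genes were above 1 TPM in both libraries. Together they held 54.9 ± 0.231% of the summed TPM of the 34 genes (SD, n = 2), against 24.3 ± 2.14% for type II and 8.66 ± 1.19% for type I cadherins.

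The delta-1 genes were among the highest of the family. Pcdh1, also known from human airway epithelium, had 113.91 TPM in replicate 2 and 107 TPM in replicate 1, first in both. In a second table of transcripts, described below, Pcdh10 stood above Pcdh1. Pcdh9 had 87.9 and 83.2 TPM in replicates 2 and 1, and Pcdh7 had 72.2 and 62.1 TPM. Pcdh1 and Pcdh9 kept their places in the order in both libraries, while Pcdh7 and Cdh13 exchanged theirs.

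Among delta-2 genes Pcdh10 stood far above the rest. Pcdh10, which acts in synapse elimination in mouse neurons, had 97.5 TPM in replicate 2 and 93.96 TPM in replicate 1, second in both. Pcdh8, first known as the activity-induced gene arcadlin in rat hippocampus, had 26.6 TPM in replicate 2 and 31.8 TPM in replicate 1. Pcdh19, an X-linked gene whose human mutations cause an epilepsy seen mainly in females, had 23.7 TPM and 27.3 TPM in replicates 2 and 1. Pcdh17, which organizes synapses along corticostriatal pathways in mice, had 17.1 and 21.7 TPM. Pcdh18 was lowest of the 8, with 3.95 and 4.69 TPM. By TPM all delta-2 genes except Pcdh10 were lower in replicate 2. By counts, compared below, Pcdh10 was lower too and Pcdh19 was nearly level.

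Type II cadherins formed a graded series without a dominant gene. These classical cadherins differ from type I in the adhesive interface, and many are known for expression in particular brain regions. Of 13 measured genes 12 reached 1 TPM in both libraries. Cdh8, which is known from mouse sensory and retinal circuits, had 35.5 TPM in replicate 2 and 27.6 TPM in replicate 1. Cdh10 had 31.6 and 26.6 TPM in replicates 2 and 1. Cdh11, also called OB-cadherin after osteoblasts, had 31.3 and 24.7 TPM. These 3 genes were the highest of the subfamily in both libraries, and each was higher in replicate 2.

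A second tier of type II genes had lower levels. Cdh12 had 23.0 TPM in replicate 2 and 14.7 TPM in replicate 1. Cdh22 had 15.4 and 18.0 TPM in replicates 2 and 1. Cdh6, which guides retinal axons to their targets in mice, had 16.8 and 11.4 TPM. Cdh12 and Cdh6 were higher in replicate 2 and Cdh22 was lower there, so that the order of the 3 differed between the libraries. Cdh18 had 12.6 and 15.2 TPM, Cdh20 had 11.1 and 9.58 TPM, and Cdh7 had 10.1 and 9.41 TPM in replicates 2 and 1. Cdh9, which acts at mossy fibre synapses of the mouse hippocampus, had 7.09 and 8.93 TPM.

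The remaining type II genes were low. Cdh5 encodes VE-cadherin, the adhesion protein of endothelial junctions. It had 7.92 TPM in replicate 2 and 6.58 TPM in replicate 1. Cdh24 had 4.80 and 6.58 TPM, level with Cdh5 in replicate 1. Cdh19, known from the Schwann cell lineage, had 0.56 TPM and 37 counts in replicate 2 and 0.92 TPM and 56 counts in replicate 1, and it was the type II gene below 1 TPM in both.

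Type I cadherins were represented by Cdh2 and Cdh4. Cdh2 encodes N-cadherin, found at synapses and in neural progenitors, and it had 49.4 TPM in replicate 2 and 54.8 TPM in replicate 1, sixth of the family in both. Cdh4, or R-cadherin, had 10.8 TPM in replicate 2 and 18.4 TPM in replicate 1. The epithelial genes were far lower. Cdh1, E-cadherin, had 1.87 and 0.97 TPM, which places it just outside the 25 genes. Cdh15, the M-cadherin of muscle, had 0.50 TPM in both libraries, and Cdh3, P-cadherin, had 0.28 and 0.23 TPM.

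Cadherins of other structure ranged from abundant to undetected. Cdh13 encodes T-cadherin, which lacks a cytoplasmic tail and is held in the membrane by a glycolipid anchor. It had 65.5 TPM in replicate 2 and 75.8 TPM in replicate 1. Cdh23 had 0.91 TPM in replicate 2 and 1.69 TPM in replicate 1. Its protein pairs with that of Pcdh15 in the tip links of hair cells, and Pcdh15, which is also enriched in oligodendrocyte precursors in mice, was much higher here at 14.7 and 15.6 TPM. Cdh26 had 8 counts in each library and Cdh17, the liver-intestine cadherin, had 3 counts in replicate 2 and 1 count in replicate 1. Cdh16, the kidney cadherin, had a count of 0 in both. These 3 genes did not have the 10 counts in either library that the comparison of libraries required.

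The last non-clustered protocadherins were Pcdh20, with 7.78 TPM in replicate 2 and 8.01 TPM in replicate 1, and Pcdh12. Pcdh12 is known from endothelium and had 1.45 TPM and 109 counts in replicate 2, against 0.65 TPM and 64 counts in replicate 1. The 3 genes at 1 TPM in 1 library alone were therefore Cdh1, Cdh23 and Pcdh12.

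Adjacent levels were often not separated. Among the 24 pairs of neighbours in the order of mean TPM over the 25 genes, the ranges of the 2 libraries did not meet in 9 pairs. The order was the same in both libraries in 12 pairs. The separated steps included Pcdh1 over Pcdh10, Pcdh10 over Pcdh9, Pcdh9 over Cdh13, Pcdh7 over Cdh2 and Cdh2 over Cdh8. From Pcdh17 down to Cdh18 no neighbouring pair was separated in this way. The step of Pcdh1 over Pcdh10 was reversed in the second table described below.

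The cytoplasmic partners of the family were abundant. Of 9 catenins and relatives 8 reached 1 TPM in both libraries. Ctnnb1, the beta-catenin that binds classical cadherin tails, had 279.8 TPM in replicate 2 and 357 TPM in replicate 1. Ctnnd2, the neural delta-catenin, had 126 and 122 TPM, and Pkp4 had 97.4 and 113 TPM. Ctnna3 was the gene below 1 TPM, with 0.90 and 0.49 TPM. All 8 genes of the WAVE complex list were above 1 TPM, led by Abi2 (212 and 191 TPM in replicates 2 and 1), Cyfip2 (186 and 169 TPM) and Nckap1 (175 and 162 TPM). No gene of the catenin and WAVE lists differed by over 2-fold between the libraries.

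Large cadherins of other names and cadherin-cleaving proteases were also measured. Of 9 large cadherins 8 reached 1 TPM in both libraries, led by Celsr2 (88.3 and 81.8 TPM), Fat3 (31.4 and 31.6 TPM) and Celsr3 (25.2 and 23.1 TPM). Dchs2 was past 2-fold lower in replicate 2, with 1.00 TPM against 3.69 TPM in replicate 1. Fat2, which is also on the cerebellar list, was past 2-fold higher, with 0.59 and 0.21 TPM. Among the proteases, Adam10, which sheds cadherin ectodomains, had 37.9 TPM in replicate 2 and 34.5 TPM in replicate 1. Furin, which cleaves the cadherin propeptide, had 17.7 and 18.8 TPM.

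The libraries differed in several family members. Differences were taken in log2 CPM, counts scaled by library total and TMM factor, as replicate 2 minus replicate 1, over 18965 genes with at least 10 counts in a library. Of the 34 genes 31 entered this comparison, of which 14 were higher and 17 lower in replicate 2. Their median difference was -0.0070, beside -0.00034 over all genes tested. Cdh23 alone was past 2-fold, and it was lower in replicate 2. Of all genes 3.94% were past 2-fold, 1.44% higher and 2.50% lower in replicate 2. Past 1.5-fold were 7 of the 31 genes, 4 higher and 3 lower in replicate 2. Of all genes 11.0% were, 4.35% higher and 6.61% lower. Where the mean reached 100 counts, 4 of 26 family members and 2.93% of all genes were past 1.5-fold. In that set the median absolute difference was 0.23 for the 26 genes and 0.10 for all 12624 genes.

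**Figure D2:**
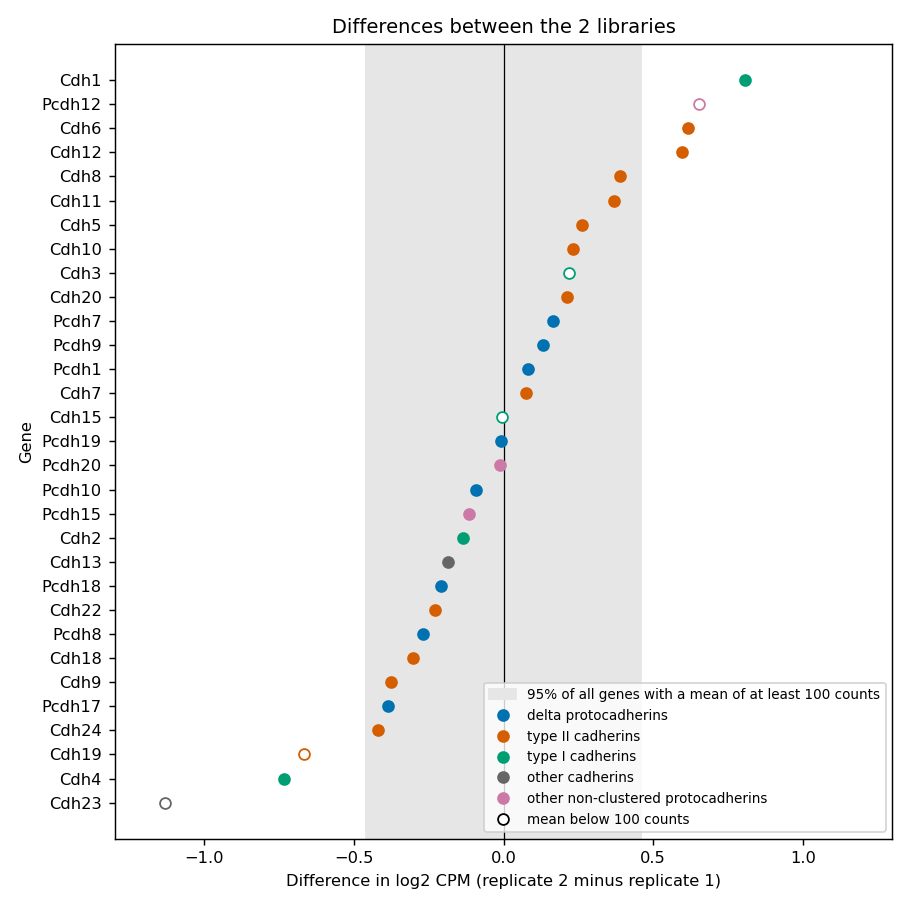
Difference in log2 CPM, replicate 2 minus replicate 1, for the 31 genes with at least 10 counts in a library, from highest to lowest. The grey band spans the central range out to 0.46 on each side that holds 95% of the genes whose mean reached 100 counts. Open circles mark a mean below 100 counts, and Cdh1, Cdh6, Cdh12 and Cdh4 are the filled points outside the band.

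The genes higher in replicate 2 were led by Cdh1. It had 144 counts in replicate 2 and 76 counts in replicate 1, a difference of 0.81 in log2 CPM or 1.75-fold. Pcdh12 followed at 0.65, Cdh6 at 0.62 (2674 and 1628 counts in replicates 2 and 1) and Cdh12 at 0.60 (1922.45 and 1184.57 counts). Among the 25 genes at 1 TPM in both libraries, Cdh8 at 0.39, Cdh11 at 0.37 and Cdh5 at 0.26 came next. Of these genes, 5 are type II cadherins, and in that subfamily 8 of 13 genes were higher in replicate 2, with a median of 0.21. Upper-layer markers were higher in replicate 2 in 6 of 6 cases, with summed levels of 337 TPM there and 246 TPM in replicate 1, and choroid plexus markers in 5 of 6, with 124 TPM and 33.5 TPM. Ttr alone gave 118.47 TPM and 30.4 TPM of the choroid plexus sums, and only 2 of the 6 markers reached 1 TPM in both libraries. Clic6 of that list was lower in replicate 2, at -1.17 in log2 CPM but 0.98 and 1.17 TPM in replicates 2 and 1. All 6 cortical excitatory and all 6 meningeal fibroblast markers (964.1 TPM and 841 TPM) were also higher, with medians of 0.29 and 0.19, as were 5 of 6 mural markers (132 TPM and 120.2 TPM). The endothelial markers that share their cell type with Cdh5 and Pcdh12 were higher in 5 of 6 cases, with a median of 0.14 and summed levels of 124 TPM in replicate 2 and 129 TPM in replicate 1. No marker of these lists was at 0 in both libraries, and their part in the differences was not tested.

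The genes lower in replicate 2 were led by Cdh23. It had 60 counts in replicate 2 and 125 counts in replicate 1, a difference of -1.13 in log2 CPM, or 2.19-fold lower. Cdh4 differed by -0.73 (1216 and 1889 counts in replicates 2 and 1), 1.66-fold lower, which was the lowest value among the 25 genes at 1 TPM. Cdh19 followed at -0.67, Cdh24 at -0.42 and Pcdh17 at -0.39. Cdh9 at -0.38 and Cdh18 at -0.30 complete the 5 lowest of the 25. Cdh19, Cdh24, Cdh9 and Cdh18 are type II cadherins too, a subfamily in which 5 of 13 genes were lower in replicate 2. Beside the striatal list, 4 of 6 deep-layer markers were lower in replicate 2, with summed levels of 130 TPM there and 198 TPM in replicate 1, as were all 6 markers of myelinating oligodendrocytes, with 701 TPM and 1070 TPM. Of the deep-layer list, Foxp2 at -1.35 and Bcl11b at -1.08 in log2 CPM were past 2-fold lower. Etv1 at 0.19 and Fezf2 at 0.17 were higher. Whether the deep-layer and striatal differences were separate was not tested. Lower too were all 6 markers of oligodendrocyte precursors (143 TPM and 171 TPM), 5 of 6 thalamic (43.8 TPM and 46.8 TPM) and 4 of 6 inhibitory neuron markers (397 TPM and 499.6 TPM). Of the inhibitory list, Vip at 0.72 and Pvalb at 0.60 in log2 CPM were higher in replicate 2. So was Ramp3 of the thalamic list, at 0.61. No marker of these lists was at 0 in both libraries. Their part in the lower values of Cdh4, Pcdh17 or Cdh19 was not tested.

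TPM and counts gave different directions for Pcdh10, at 97.5 and 93.96 TPM in replicates 2 and 1 but -0.09 in log2 CPM. TPM divides by a length that depends on the estimated mixture of transcripts. The same holds in size for Pcdh12, whose TPM ratio of replicate 2 over replicate 1 was 2.23 while its counts gave 1.57-fold. For Pcdh19 the TPM ratio was 0.867, while its counts differed by -0.0070 in log2 CPM.

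The genes are on 11 chromosomes of mm10. In 8 of 23 pairs of family members that follow each other on a chromosome no protein-coding gene starts between them. The longest such run is on chromosome 15, from Cdh6 to Cdh12, and Cdh18 follows it beyond Acot10. Cdh6 (13028701 to 13173675), Cdh9 (16728756 to 16857094), Cdh10 (18818947 to 19014236), Cdh12 (20449265 to 21589533) and Cdh18 (22549022 to 23474418) follow each other over 10.4 Mb, with Acot10 as the only other protein-coding gene that starts between them. All 5 are type II cadherins above 1 TPM, and their differences between the libraries had both signs. In the order along the chromosome their differences in log2 CPM were 0.62, -0.38, 0.23, 0.60 and -0.30. On chromosome 8, Cdh8, Cdh11 and the endothelial Cdh5 (104101625 to 104144511) follow each other over 5.12 Mb, with levels in replicate 2 of 35.5, 31.3 and 7.92 TPM. Cdh26 and Cdh4 are neighbours on chromosome 2, the first at 0.14 TPM and the other at 10.8 TPM in replicate 2.

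High levels were found in long and in short genes. The median span of the 34 genes was 115 kb, against 17.3 kb for all protein-coding genes, and 18 of the 34 exceeded 100 kb, as did 11.3% of protein-coding genes. Pcdh15 spans 1550 kb, Cdh12 1140 kb and Cdh13 1041 kb, and all were above 10 TPM over all their transcripts. In replicates 2 and 1, protein-coding transcripts held 41.1% and 44.2% of the TPM of Pcdh15. They held 68.1% and 70.6% for Cdh12, and 84.7% and 82.8% for Cdh13. The shortest gene, Pcdh8, spans 4.54 kb and had a higher level than Pcdh15. Of the 9 genes outside the 25, only Cdh23 exceeds 100 kb.

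**Figure D3:**
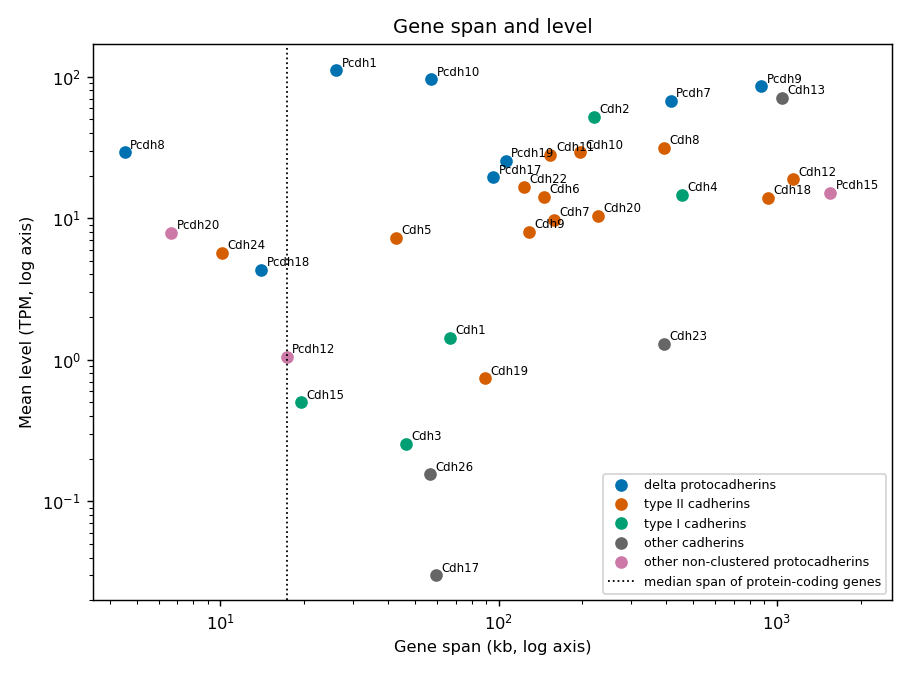
Gene span in kb against mean level in TPM (both log axes) for the 33 genes with a level above 0, coloured by subfamily. The dotted line marks the median span of protein-coding genes at 17.3 kb, and long genes such as Cdh13 and short ones such as Pcdh8 are both found at high levels.

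Promoter sequence was compared for the genes with a RefSeq promoter window, 250 bases before to 50 after the start, on GRCm38.p6. The table held 25 windows for 22 of the 34 genes. The dinucleotide CG occurred 14 times per window in the median, against 7 times over all 32851 windows. At least 15 occurrences were found in 12 of the 25 windows (48%) and in 34.6% of all windows. Counts ranged from 38 for Cdh22 to 2 for Cdh10, both of them genes above 1 TPM.

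Isoform shares were read from the deposited percent of each gene's TPM per transcript. The 25 genes have 148 annotated transcripts, and Cdh20 alone has a single one. One transcript held over 50% in both libraries for 17 of the 25 genes, and over 75% for 10. The highest transcript was protein-coding for 23 genes, and 21 of the 25 had the same highest transcript in the second transcript table, which was made directly from the reads. Genes with 1 dominant form included Cdh22-201 (100% in both), Pcdh17-201 (93.4% in replicate 2 and 96.4% in replicate 1), Cdh6-201 (96.4% and 91.6%) and Cdh4-201 (86.7% and 84.1%).

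**Figure D4:**
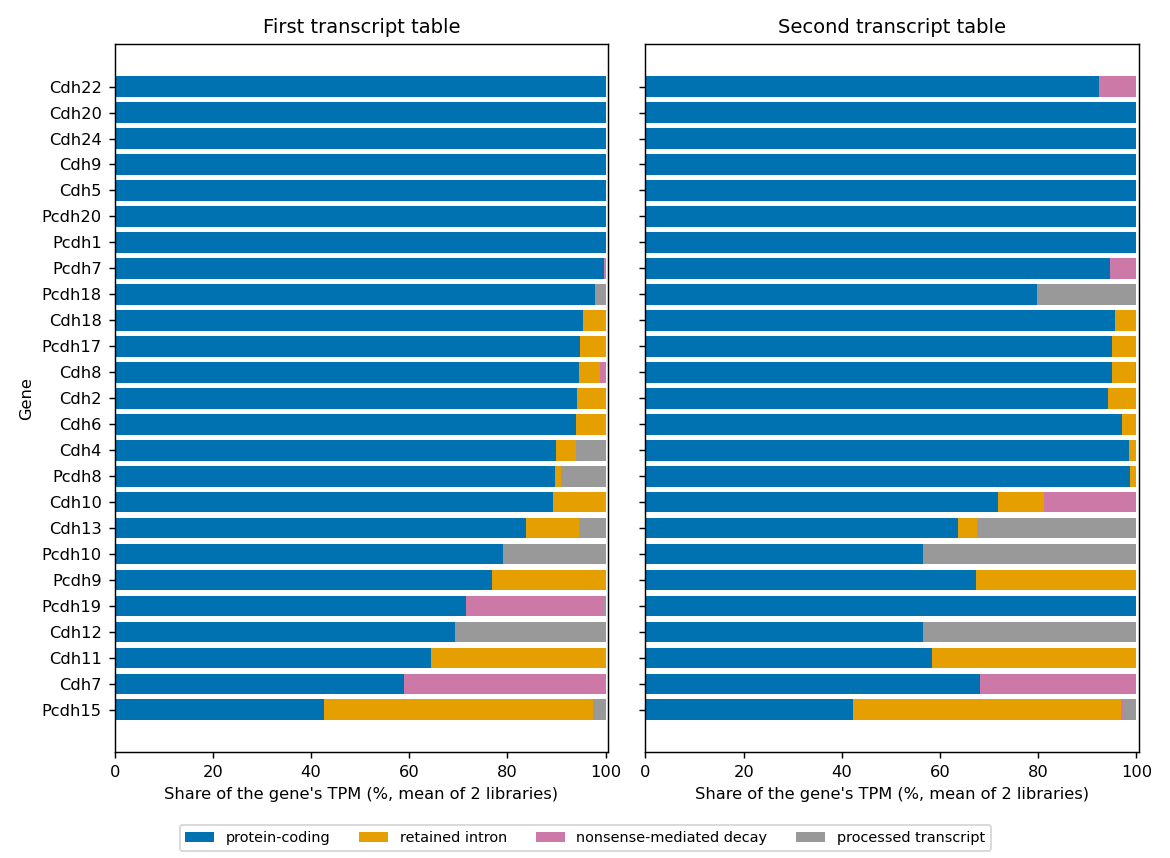
Share of each gene's TPM by annotated transcript class, as the mean of the 2 libraries, in the first (left) and second (right) transcript table, for the 25 genes at 1 TPM in both libraries. Protein-coding transcripts fill the bar in both panels for Cdh5, Cdh9, Cdh20, Cdh24 and Pcdh20, and hold the smallest share for Pcdh15.

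Noncoding classes held a sizeable share of TPM in several genes. Protein-coding transcripts held a median of 93.97% in replicate 2 and 93.5% in replicate 1, but under 75% in both libraries for 4 genes. In Pcdh15, retained-intron transcripts held 56.6% and 53.0% in replicates 2 and 1. In Cdh11 they held 34.1% and 37.2%. By expected counts, which are not divided by length, protein-coding transcripts held 67.7% of Pcdh15 in replicate 2 and 69.7% in replicate 1, and 88.8% and 86.4% of Cdh11. By counts 21 of the 25 genes had over 90% in protein-coding transcripts in both libraries, against 14 by TPM. In Cdh7 the nonsense-mediated decay transcript Cdh7-204 was highest, with 33.9% in replicate 2 and 48.5% in replicate 1. Short transcripts weigh heavily in TPM. Cdh12-202, of 404 nt, held 31.9% of Cdh12 TPM in replicate 2 from 45.45 counts and 29.4% in replicate 1 from 24.96 counts, while the coding Cdh12-203 held 1877 and 1159.61 counts. Pcdh19-204, of 335 nt, held 22.3% and 33.7% from 25.34 and 41.26 counts, and it was at 0 in the second table. Total RNA also holds unspliced precursors, which these files do not separate from retained introns.

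The coding isoforms of several members differ in the later part of the coding sequence. The sequences at which they part are given because they show how the encoded forms differ. For each pair the last 30 shared coding bases are in lower case and the first 30 bases of each form's own continuation are in capitals, in the direction of transcription, from GENCODE M21 transcripts on mm10.

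Cdh8 was divided among forms with different coding ends. Cdh8-204 encodes 711 codons and held 43.6% in replicate 2 and 45.5% in replicate 1, while Cdh8-203 encodes 799 codons and held 26.8% and 23.5%. The forms share 2089 coding bases and part after position 99030876 of chromosome 8 (minus strand), where the shorter form has 47 more coding bases and the longer 311. The catenin-binding part of a classical cadherin lies towards the end of the tail. The second table gave Cdh8-204 46.2% and 45.8%.
Cdh8-204: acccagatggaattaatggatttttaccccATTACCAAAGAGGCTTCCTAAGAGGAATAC
Cdh8-203: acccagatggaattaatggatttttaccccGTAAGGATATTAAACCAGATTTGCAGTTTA

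Pcdh10 had a long-tailed and a short-tailed form at similar shares. Pcdh10-202 encodes 1040 codons and held 31.4% and 33.9% in replicates 2 and 1, and Pcdh10-204 encodes 896 codons and held 29.1% and 32.4%. They part after position 45381883 of chromosome 3 (plus strand), with 492 coding bases to follow in the long form and 60 in the short one. In the second table the short noncoding Pcdh10-205 was highest, with 45.1% and 41.97%, so the leading form of Pcdh10 depended on the table.
Pcdh10-202: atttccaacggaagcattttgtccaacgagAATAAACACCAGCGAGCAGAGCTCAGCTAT
Pcdh10-204: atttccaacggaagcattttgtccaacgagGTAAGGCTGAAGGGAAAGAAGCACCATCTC

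Pcdh8 forms differ by 1 block of 291 coding bases, or 97 codons, which Pcdh8-201 has and Pcdh8-204 lacks. Pcdh8-201 held 58.6% and 60.2% in replicates 2 and 1, and Pcdh8-204 held 31.0% and 29.5%. The block starts after position 79768788 of chromosome 14 (minus strand). Both tables gave the same order, with 66.9% and 68.7% for Pcdh8-201 in the second.
Pcdh8-201: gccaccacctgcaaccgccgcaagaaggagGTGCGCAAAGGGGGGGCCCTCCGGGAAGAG
Pcdh8-204: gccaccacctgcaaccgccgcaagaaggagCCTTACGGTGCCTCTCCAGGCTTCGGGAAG

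Pcdh19 and Pcdh7 also had forms of unequal length with the same end. Pcdh19-202 has 144 more coding bases than Pcdh19-203, and the forms part after position 133685118 of chromosome X (minus strand). Pcdh19-202 held 56.4% in replicate 2 and 48.9% in replicate 1, and Pcdh19-203 held 20.3% and 17.4%. Pcdh7-203 has a block of 24 coding bases, or 8 codons, that Pcdh7-202 lacks, after position 57913348 of chromosome 5 (plus strand). Pcdh7-203 held 53.0% and 52.6% in replicates 2 and 1, and Pcdh7-202 held 15.2% and 22.1%.
Pcdh19-202: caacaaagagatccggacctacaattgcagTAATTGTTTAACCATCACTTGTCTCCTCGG
Pcdh19-203: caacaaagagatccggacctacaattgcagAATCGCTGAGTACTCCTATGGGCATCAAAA
Pcdh7-203: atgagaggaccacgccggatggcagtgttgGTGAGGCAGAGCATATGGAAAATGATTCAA
Pcdh7-202: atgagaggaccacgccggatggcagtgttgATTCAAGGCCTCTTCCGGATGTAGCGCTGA

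N-cadherin RNA was shared between a longer and a shorter coding form. Cdh2-201, of 906 codons, held 54.2% of Cdh2 in replicate 2 and 49.3% in replicate 1, and Cdh2-202, of 849 codons, held 39.8% and 45.1%. Other genes had forms with the same coding sequence. Cdh10-202 and Cdh10-201, of 788 codons each, held 74.6% and 14.97% of Cdh10 in replicate 2 and 75.9% and 13.1% in replicate 1, but the second table gave 60.6% and 53.9% to Cdh10-201 in replicates 2 and 1. Cdh9-202 and Cdh9-201 encode the same 788 codons, and Pcdh20-201 and Pcdh20-202 the same 952. Which of such a pair was higher therefore does not bear on the encoded protein. Pcdh9 was spread over several forms, with Pcdh9-204 at 37.2% in replicate 2 and 33.7% in replicate 1 and the retained-intron Pcdh9-203 at 23.2% and 23.3%.

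The second table gave similar levels for the family. After both tables were scaled to protein-coding genes, the ratio of the second to the first over the 25 genes ranged from 0.607 for Pcdh19 to 1.16 for Cdh5, with a median of 0.921. The order at the top changed. On that scale Pcdh10 had 219 and 224 TPM in replicates 2 and 1 in the second table, above Pcdh1 at 200 and 192 TPM. None of the 25 differed by over 2-fold, beside 1.33% of protein-coding genes at 1 TPM. Cdh17 did, with a ratio of 6.34, from 3 counts and 1 count in the first table. Cdh16, at 0 in the first table, had 0 TPM in replicate 2 and 0.308 TPM in replicate 1 in the second. Exons of 7 family members share bases with another annotated gene. The largest overlap was 2235 bases between Pcdh7 and the opposite-strand 4932441J04Rik, which had 203 and 188 counts against 8322 and 6931 for Pcdh7. Cdh12 shares 198 bases with Gm49685 on its own strand, which had 159.55 and 95.43 counts.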

How the data were processed

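Both libraries had a table of genes and one of transcripts, made from reads aligned to the transcriptome (mm10, GENCODE M21), and a second transcript table made from the reads themselves, per the description files of each sample. The aligner is not given in the sources used here, nor are the quantifiers, their versions or their use of strand, so genes with overlapping exons may share reads. The deposited expected counts are estimated reads without normalization. Deposited TPM were scaled over every entry of their file. The deposited percent gives each transcript's share of its gene's TPM. Interval bounds of TPM, deposited as a score by the quantifier, were not used.

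Entries other than genes (97 spike-in and control entries and 26248 entries named by a number) were left out of library sizes. Expected counts were rounded, filtered at 10 counts in at least 1 library and scaled with TMM, with a prior count of 2 (edgeR 4.0.16, R 4.3.3). DESeq2 1.42.0 gave alternative size factors. Python 3.11.15, numpy 2.4.6, pandas 2.3.3 and matplotlib 3.10.9 did the rest. The calculation of the differences was checked on simulated data, which does not test the differences between these libraries. Over 17769 genes the libraries differed by a chi-square of 11.98 per degree of freedom, more than sampling noise gives. The members and lists were chosen with earlier results of these data known. All members were named, with values in each library for those at 1 TPM, and every member past 2-fold and the 5 largest differences in each direction. One gene of the protease list is not reported here.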

Additional observations from a re-analysis of the deposited data

How the results depend on the processing

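No paired analysis was possible because the 2 libraries form 1 group. The count of family members at 1 TPM was 25 and ranged from 25 to 30 under thresholds of 0.5 and 2 TPM, the second table and rescaling to protein-coding genes, and from 26 to 27 with a single library. The 1 gene past 2-fold, Cdh23, became 0 with a mean of at least 100 counts, which leaves Cdh23 out, and 0 in the second table, where its difference was -0.997. Past 1.5-fold there were 7. The 17 genes with 1 transcript over 50% became 10 at 75% and were 17 to 19 with a single library. By expected counts, which are not divided by length, delta protocadherins took 61.4% and type II cadherins 20.6% of the family, against 54.9% and 24.3% by TPM. In the second table delta protocadherins took 54.7%, a shift larger than the SD of 0.231. With a single library the shares ranged from 54.8% to 55.1% for delta protocadherins, 22.8% to 25.8% for type II and 7.82% to 9.50% for type I cadherins. The median difference of -0.0070 was -0.0065 with DESeq2 size factors and -0.0070 with a prior count of 0.5. With library totals alone it was -0.035, beside -0.028 over all genes. In the second table it was -0.087, beside -0.0023 over all genes. There Cdh26 (-0.087) and Cdh17 (-0.64) also passed the count filter, and the median was the value of Cdh26. Pcdh19, whose value was the median in the first comparison, stood at 0.0063 in the second table. The medians therefore cover different genes. Low members rest on few counts, and 2 libraries give little information on spread.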
